A study of Homo sapiens with 6 samples.

Results

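The 10 genes described here are MID1IP1, which encodes an activator of acetyl-CoA carboxylase, and 9 genes of fatty acid and triglyceride synthesis or its control: ACLY, ACACA, ACACB, FASN, ELOVL6, SCD, SREBF1, MLXIPL and PNPLA3. They were taken by gene symbol from a table of 26184 genes and loci, of which 19974 are annotated genes. They were chosen with the comparison of the cell lines already known, so their differences between the lines are given as a description. Where a threshold of the fit over all genes sorts them, that is part of the description and supports nothing.

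Poly(A) RNA was sequenced from Huh7, an established human hepatocellular carcinoma cell line of wild-type genotype, in 3 samples of the parental line (Huh7 P) and 3 of a lenvatinib-resistant line (Huh7 LR). Lenvatinib inhibits several receptor tyrosine kinases and is used against this cancer. Huh7 LR was derived from Huh7 P under lenvatinib, starting at 1 μM and reaching 20 μM after about 10 months, and Huh7 P had no such exposure. The comparison asks how gene expression in the resistant line differs from that of its parent. Huh7 LR is a single derived line, so resistance, drug exposure and separate culture cannot be told apart, and the methods state that the line was kept in medium with 20 μM lenvatinib without saying whether the drug was present when RNA was taken.

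The libraries held between 62738937 and 71427573 counts. Values per library are in CPM, a count scaled to the size of its library, further scaled by the trimmed mean of M-values (TMM). Levels of different genes are compared as FPKM, which accounts for transcript length. The sums of markers below are the exception, being in CPM with no adjustment for length. All 8 hepatocyte markers had counts in every library, and ALB lay between 11687 and 22653 CPM. The summed hepatocyte markers were 24061 to 26375 CPM in Huh7 P and 36082 to 38500 CPM in Huh7 LR. More than any other marker, ALB made up this sum, 5 of the 8 markers lay higher in Huh7 LR without overlap, and APOB, SERPINA1 and HNF4A overlapped. The part of this difference in the results was not tested. Of 8 adipocyte markers, 4 (ADIPOQ, LEP, CIDEA and RETN) were at 0 in all libraries, and the sum, almost all of it CIDEC, was 48.5 to 52.6 CPM in Huh7 P and 18.9 to 25.5 CPM in Huh7 LR. Of 6 fibroblast markers only DCN was at 0 in all libraries, and their sum was 2.16 to 2.28 CPM against 5.02 to 8.02 CPM. Of 6 leukocyte markers TYROBP and HLA-DRA were at 0, and the sum, mostly CD68 and LYZ, was 130 to 140 CPM against 55.8 to 62.9 CPM.

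Hepatocytes build fatty acids from citrate that leaves the mitochondria. ATP citrate lyase cleaves it to acetyl-CoA, acetyl-CoA carboxylase makes malonyl-CoA in the committed step, and fatty acid synthase builds palmitate with NADPH. Palmitate is then elongated, desaturated and esterified. The transcription factors SREBP-1c, which responds to insulin and sterols, and ChREBP, which responds to glucose, turn these genes on in liver, and MID1IP1, also called MIG12 or Spot 14-related protein, helps the carboxylase to polymerize into its active form.

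MID1IP1 was the member whose groups lay farthest apart. It is located on chromosome X at 38801432 to 38806537 on the plus strand (GENCODE 29, GRCh38; ENSG00000165175). The parental libraries counted 126, 110 and 136 reads of it, and the resistant libraries 0, 0 and 0. The parental counts corresponded to 1.76, 1.78 and 2.08 CPM in Huh7 P (mean 1.87 ± 0.180, SD, n = 3), a low level that every Huh7 P library shared. A count of 0 allows up to 3 counts per library, which is 0.0443 CPM over the Huh7 LR libraries, so the level was at least 42.3-fold lower in Huh7 LR. In bulk RNA, fewer cells with a transcript and less of it per cell cannot be told apart. An antisense gene, MID1IP1-AS1, overlaps 151 bases of its exons and is not a row of the table, and whether counting used strand was not stated. THRSP, the paralog of MID1IP1 known as Spot 14, was counted 3, 0 and 0 times in the parental libraries and 0, 0 and 1 times in the resistant ones, too few for a comparison.

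The sequences upstream of 3 start sites are shown because MID1IP1 and MLXIPL carry the lowest and the highest difference among the members, and SREBF1, the other transcription factor gene, stayed nearly level. Each is the 250 bases before a RefSeq start site on GRCh38.p14, 5′ to 3′ on the strand of the gene. They lie at chrX:38801209-38801458 (plus strand), chr7:73624523-73624772 (minus strand) and chr17:17836987-17837236 (minus strand). Capitals mark every match, on either strand, to the sterol regulatory element TCACNCCAC, the E-box CACGTG, the NF-Y box CCAAT or the GC box GGGCGG.
MID1IP1: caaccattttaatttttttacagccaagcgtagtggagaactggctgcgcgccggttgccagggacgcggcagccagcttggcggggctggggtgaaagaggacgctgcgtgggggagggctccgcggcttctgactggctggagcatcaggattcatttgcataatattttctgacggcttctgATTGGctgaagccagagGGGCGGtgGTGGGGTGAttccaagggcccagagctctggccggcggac
MLXIPL: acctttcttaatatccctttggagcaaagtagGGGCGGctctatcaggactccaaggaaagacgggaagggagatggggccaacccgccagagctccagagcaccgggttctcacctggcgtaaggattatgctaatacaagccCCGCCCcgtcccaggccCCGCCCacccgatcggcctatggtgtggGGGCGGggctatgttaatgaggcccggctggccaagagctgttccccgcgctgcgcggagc
SREBF1: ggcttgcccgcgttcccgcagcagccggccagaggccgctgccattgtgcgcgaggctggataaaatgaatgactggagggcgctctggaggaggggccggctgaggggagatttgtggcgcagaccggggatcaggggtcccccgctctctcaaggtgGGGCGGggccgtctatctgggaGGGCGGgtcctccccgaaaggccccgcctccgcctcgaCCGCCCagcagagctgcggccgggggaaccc

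Of the 10 members, 8 had an entry in the RefSeq promoter table, with 12 start sites, and FASN and PNPLA3 had none. The sterol regulatory element is bound by SREBP proteins. Its string TCACNCCAC was found in MID1IP1 alone among these 8, and in 0.883% of 35116 promoters of the same length. It reads GTGGGGTGA on the strand shown, 40 to 32 bases before the start, and the GC box of MID1IP1 lies just upstream at 48 to 43. The E-box was in none of the 8 members and in 6.34% of promoters. The NF-Y box was in 5 members (ACACA, ACACB, ACLY, MID1IP1 and SCD) and in 32% of promoters. The GC box was in all 8 members and in 42.6% of promoters. Members with several start sites had more chances of a match, and by start site the NF-Y box was in 7 of 12 and the GC box in 10 of 12. The GC box recurs upstream of MLXIPL, where the sequence shown holds 4. The matched letters in the printed sequences do not overlap one another. A match is a string of letters and not a measured binding site. Other forms of these elements, other start sites and bases farther upstream were not searched, so a missing match does not mean that the element is absent.

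MID1IP1 lay within a run of 5 consecutive listed genes of chromosome X that all had 0 counts in Huh7 LR. The run spans 38269163 to 40177329, or 1.91 Mb, with 582 counts over the parental libraries against 0 over the resistant ones. Its order is RPGR, OTC, TSPAN7, MID1IP1 and BCOR. The 2 tested genes next to MID1IP1 were TSPAN7, a tetraspanin, and BCOR, a transcriptional corepressor. TSPAN7 had 11, 18 and 11 counts in Huh7 P and was at least 4.62-fold lower in Huh7 LR. BCOR had 40, 40 and 56 counts and was at least 15.5-fold lower. RPGR and OTC were named after their values were seen, and had 11, 6 and 7 counts and 0, 10 and 0 counts in Huh7 P, near the limit of detection.

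The nearest genes outside the run with more than a few counts had them in both lines. SRPX, on one side, had 6 counts in Huh7 LR against 0. SYTL5, the next gene out, was counted 180, 175 and 225 times in Huh7 P and 255, 376 and 300 times in Huh7 LR. On the other side ATP6AP2, a subunit associated with the proton pump, was counted 15021 times over the parental libraries and 14648 times over the resistant ones. Of the 20 nearest tested neighbours of MID1IP1, 10 on each side, at an adjusted p under 0.05 7 were higher in Huh7 LR, 6 were lower and 7 did not pass, with a median log2 fold change of -0.057. The background at that threshold was 23.3% of 17531 tested genes higher and 22.4% lower, or 45.7% in either direction. TSPAN7 and BCOR, of the run, are among the 20 neighbours and among the 6 that were lower. The neighbours reach from ZFX, 14585177 bases before MID1IP1, to NDP, 5142239 bases after it.

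**Figure D1:**
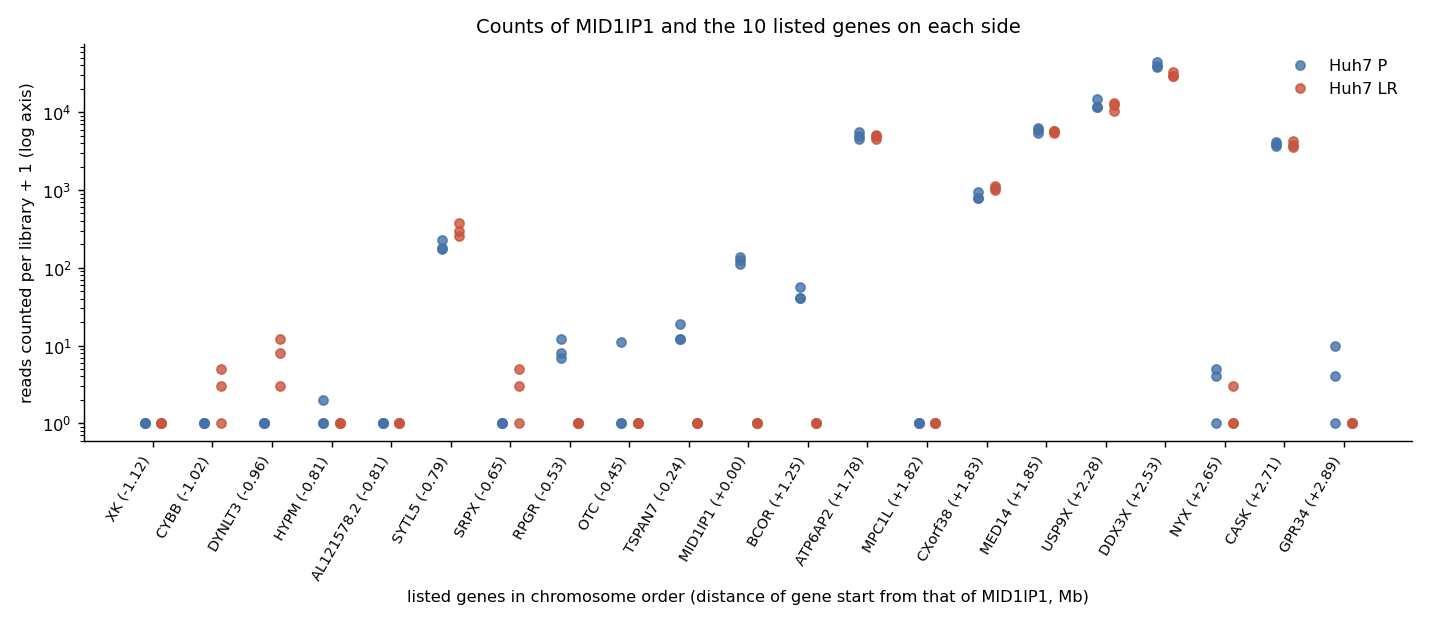
Counts per library plus 1 (log axis) for MID1IP1 and the 10 listed genes on each side in chromosome order, with distances of gene starts in Mb and 1 point per library of Huh7 P and Huh7 LR. The Huh7 LR points sit at 0 counts from RPGR to BCOR, where Huh7 P held 582 counts, while ATP6AP2 and SYTL5 have counts in every library of both lines.

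The pattern of MID1IP1 was rare among annotated genes. Of 13409 with at least 10 counts in every Huh7 P library, 5 (0.0373%) had 0 counts in all Huh7 LR libraries: MID1IP1, BCOR, TSPAN7, ACOT9 and GAL. ACOT9, an acyl-CoA thioesterase gene, also lies on chromosome X but outside the run, with 17, 24 and 17 counts in Huh7 P and a level at least 6.67-fold lower in Huh7 LR. GAL, the neuropeptide galanin on chromosome 11, had 10, 28 and 19 counts and was at least 6.65-fold lower. The 5 genes had 10 to 136 counts per Huh7 P library, and the share of 0.0373% includes genes of much higher level. The reverse pattern, 0 counts in all Huh7 P libraries and at least 10 in each Huh7 LR library, was found in 10 annotated genes. Across all 846 listed genes of chromosome X, 487 had a count in Huh7 P, and 29 of these (5.95%) had none in Huh7 LR. Among all 15999 annotated genes with a count in Huh7 P the number was 402 (2.51%). A single count in any Huh7 P library was enough for these numbers, and the 5 genes of the run are among the 29. The genes were not matched by level, so nothing is read from the difference between these shares.

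The other 9 members had counts in every library. Of all 10 members, at an adjusted p under 0.05 4 (MLXIPL, PNPLA3, SCD and ACACB) were higher in the resistant line, MID1IP1 was lower, and ACLY, ACACA, FASN, ELOVL6 and SREBF1 did not pass. FASN came under the threshold with the replicate number as a block, with DESeq2, without replicate 1 of Huh7 P and without replicate 2 of Huh7 LR. With the stricter call of an adjusted p under 0.001 and more than a 2-fold change, MLXIPL was higher and MID1IP1 lower, where 4.43% of all tested genes were called higher and 1.78% lower, or 6.21% in all. At the looser threshold the shares were 23.3% and 22.4%. The libraries of the lines did not overlap in the same 4 higher members and in MID1IP1, and overlapped in the other 5, where 28.2% of all tested genes lay apart with Huh7 LR higher and 27.7% with Huh7 LR lower, or 55.9% together. On GRCh38 (GENCODE 29), MLXIPL lies at 73593194 to 73624543 of chromosome 7, PNPLA3 at 43923739 to 43964488 of chromosome 22, SCD at 100347124 to 100364834 of chromosome 10 and ACACB at 109116595 to 109268226 of chromosome 12. The median log2 fold change was 0.28 over the 9 members without MID1IP1 and 0.16 over all 10, beside 0.0046 over all tested genes. Since the members were chosen on this contrast, nothing is read from these counts.

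**Figure D2:**
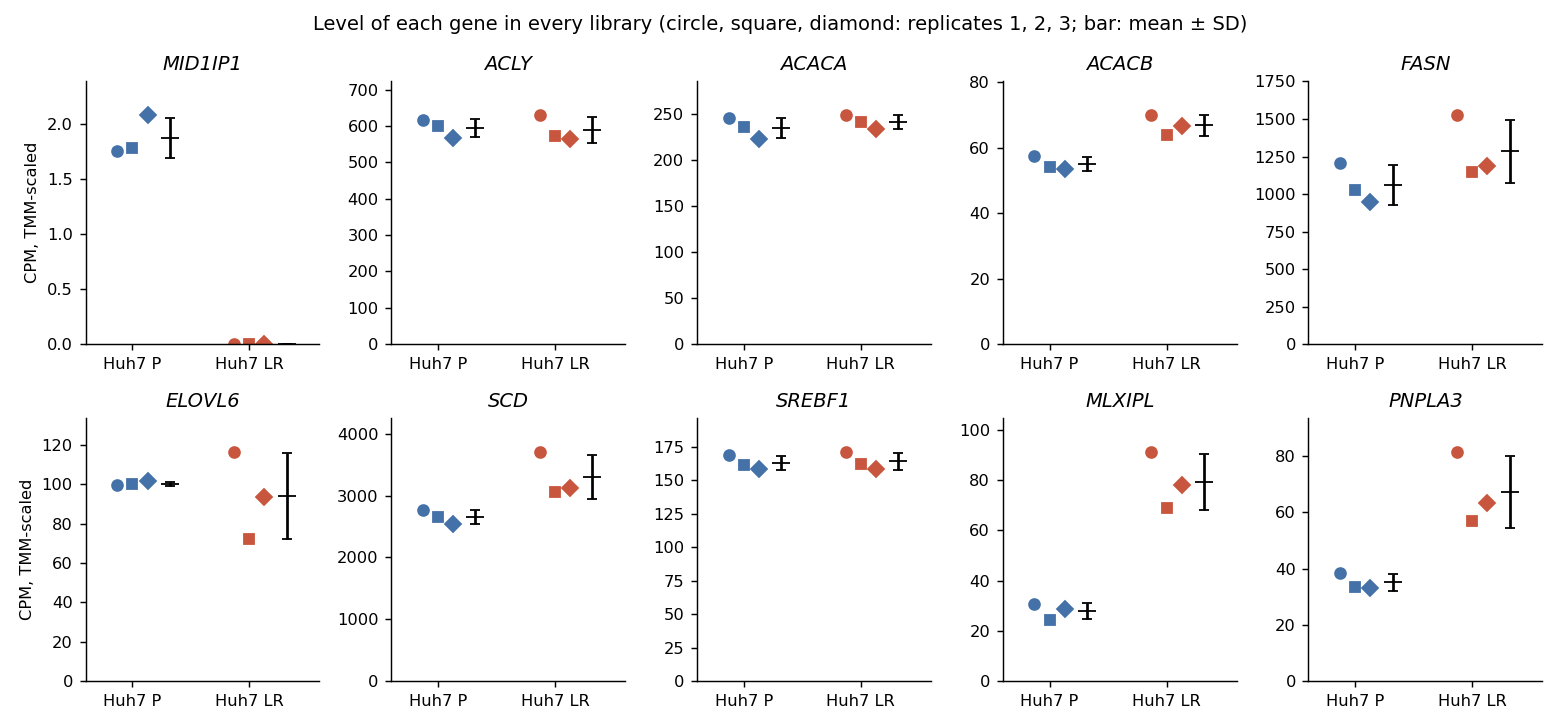
TMM-scaled CPM of each member, from 0, with 1 point per library and the mean with its SD (n = 3 per line). MLXIPL, PNPLA3, SCD and ACACB lie apart with Huh7 LR higher, MID1IP1 is at 0 in Huh7 LR, and the other 5 overlap.

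Of the members that supply and commit carbon, ACLY and ACACA overlapped between the lines and ACACB was higher in Huh7 LR. ACLY, which makes cytosolic acetyl-CoA from citrate, was at 615, 601 and 568 CPM in Huh7 P and 629, 572 and 563 CPM in Huh7 LR. The lines overlapped, with means of 595 ± 24.2 and 588 ± 35.9 CPM (SD, n = 3 each) and a log2 fold change of -0.016 (SE 0.072). ACACA, the cytosolic acetyl-CoA carboxylase that feeds fatty acid synthesis, was at 245, 236 and 223 CPM in Huh7 P and 249, 241 and 234 CPM in Huh7 LR. Its libraries interleaved and its log2 fold change was 0.04 (SE 0.068). ACACB encodes the carboxylase at the mitochondrial surface, whose malonyl-CoA restrains fatty acid oxidation. It was at 57.4, 54.0 and 53.6 CPM in Huh7 P and at 69.8, 63.7 and 66.7 CPM in Huh7 LR. The lines did not overlap, Huh7 LR being the higher, with a log2 fold change of 0.28 (SE 0.069), or 1.21-fold.

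The 2 carboxylase genes stood in different proportion in the lines. The FPKM of ACACA was 3.65, 3.73 and 3.63 times that of ACACB in the parental libraries and 3.05, 3.07 and 2.83 times in the resistant ones. The means were 3.67 ± 0.0491 and 2.98 ± 0.135 (SD, n = 3), and the lines did not overlap. The ACACA form remained the more abundant in all 6 libraries.

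FASN, the synthase that builds palmitate, was at 1208, 1026 and 949 CPM in Huh7 P and 1524, 1145 and 1185 CPM in Huh7 LR. Replicate 1 of each line was its highest, the highest Huh7 P library lay above 2 of the Huh7 LR libraries, and the lines overlapped. The log2 fold change was 0.28 (SE 0.12), and 0.13 without replicate 1 of Huh7 LR. ELOVL6, which extends palmitate to stearate, was at 99.6, 99.8 and 101 CPM in Huh7 P and 116, 72.3 and 93.6 CPM in Huh7 LR. The coefficient of variation was 1.03% in Huh7 P and 23.4% in Huh7 LR, and the Huh7 LR libraries lay on both sides of the parental values. Its log2 fold change was -0.092 (SE 0.13). It was -0.27 without replicate 1 of Huh7 LR and turned positive, at 0.075, without replicate 2 of Huh7 LR, so single libraries set its sign. SCD introduces the first double bond and makes oleate. It was at 2761, 2658 and 2541 CPM in Huh7 P and 3707, 3054 and 3131 CPM in Huh7 LR. The Huh7 LR libraries were all above those of Huh7 P, with a log2 fold change of 0.31 (SE 0.085), or 1.24-fold, and 0.22 without replicate 1 of Huh7 LR.

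The genes of the 2 lipogenic transcription factors differed in their values. SREBF1, which encodes SREBP-1, was at 169, 162 and 158 CPM in Huh7 P and 171, 163 and 159 CPM in Huh7 LR. The sets nearly coincided, with a log2 fold change of 0.010 (SE 0.067). The counts do not separate the SREBP-1a and SREBP-1c transcripts, nor do they measure the processed protein, and 556 exon bases of SREBF1 overlap RAI1 on the opposite strand. MLXIPL, which encodes ChREBP, was at 30.7, 24.4 and 28.6 CPM in Huh7 P and 91.3, 69.0 and 78.1 CPM in Huh7 LR. The lowest Huh7 LR library was above the highest Huh7 P library by a wide margin, with means of 27.9 ± 3.23 and 79.5 ± 11.2 CPM (SD, n = 3 each). The log2 fold change was 1.51 (SE 0.11), or 2.85-fold, the highest among the members.

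PNPLA3 encodes a lipid droplet protein of liver with lipase and acyltransferase activity whose gene is a known target of SREBP-1c and ChREBP. It was at 38.5, 33.4 and 33.2 CPM in Huh7 P and 81.5, 57.0 and 63.4 CPM in Huh7 LR. The lines did not overlap, and the means were 35.0 ± 2.96 and 67.3 ± 12.7 CPM (SD, n = 3 each). The log2 fold change of 0.94 (SE 0.12), or 1.92-fold, was just outside the 2-fold threshold, and without replicate 1 of Huh7 LR it was 0.78. Its exons share 148 bases with SAMM50 on the same strand, so that reads there are uncertain.

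Per transcript length, SCD was the most abundant member in both lines, at 455 ± 23.2 FPKM in Huh7 P and 576 ± 67.3 FPKM in Huh7 LR (SD, n = 3 each). In Huh7 P it was followed by ACLY at 127 and FASN at 114 FPKM, whose libraries overlapped. Then came SREBF1 at 40.9, ACACA at 22.9, ELOVL6 at 16.1, PNPLA3 at 11.9, MLXIPL at 9.41, ACACB at 6.23 and MID1IP1 at 0.669 FPKM, with no overlap between other neighbours. In Huh7 LR the order after SCD was FASN at 141 and ACLY at 129 FPKM, which overlapped, and SREBF1 at 40.6 FPKM. MLXIPL at 27.8, ACACA at 23.9 and PNPLA3 at 23.9 FPKM followed, each overlapping its neighbour. ELOVL6 at 15.2 and ACACB at 8.03 FPKM stood apart from their neighbours, and MID1IP1 was listed at 0. MLXIPL lay below ACACA and ELOVL6 in Huh7 P, while in Huh7 LR it lay above ELOVL6 and its range overlapped that of ACACA.

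Within each line the members tended to be high or low in the same library. In Huh7 LR, replicate 1 was the highest of the 3 libraries for all 9 members with counts, where it was the highest for 36.3% of all tested genes. The median member lay 12.4% above the mean of the line in replicate 1, 7.37% below it in replicate 2 and 3.32% below it in replicate 3. In Huh7 P, replicate 1 was the highest for 8 of the 9 members, beside 36.1% of all tested genes, and the lowest for ELOVL6. The median member lay 4.29% above the mean in replicate 1 of Huh7 P and 4.23% below it in replicate 3. The median of all tested genes stayed within 0.318% of the mean in every library. These 9 genes share libraries, so they are not independent readings of this spread.

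**Figure D3:**
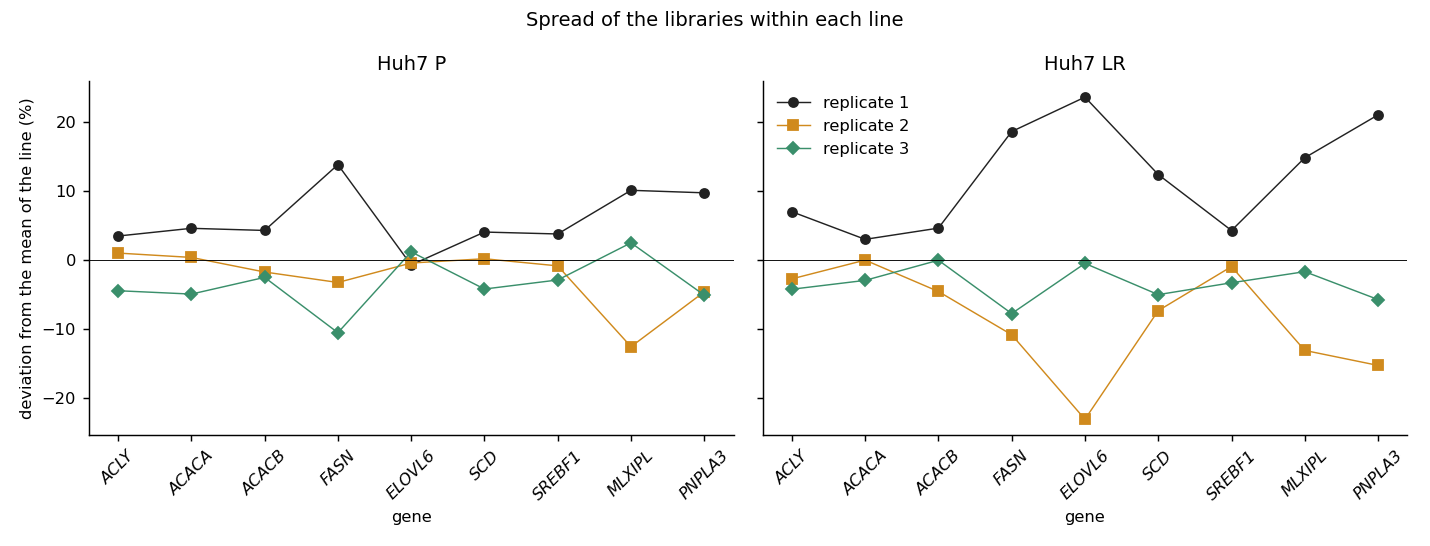
Deviation of each library from the mean of its own line, in percent, for the 9 members with counts in both lines, with Huh7 P and Huh7 LR in separate panels. Replicate 1 of Huh7 LR is above its line's mean for all 9 genes, with a median of 12.4%.

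Around the members, 119 further genes of the pathway were placed in 7 lists by function, of which 112 had enough counts to be tested. By the quasi-likelihood test of edgeR, with p-values adjusted after Benjamini and Hochberg over all 17531 tested genes, 49 were higher in the resistant line at the 0.05 threshold, 15 were lower and 48 did not pass, beside 23.3% of all tested genes higher and 22.4% lower. The median log2 fold change was 0.20, beside 0.0046 over all tested genes. The lists were chosen with earlier results of these data known, and each gene is judged by its own adjusted p. The same shares are the background of each list's counts.

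**Figure D4:**
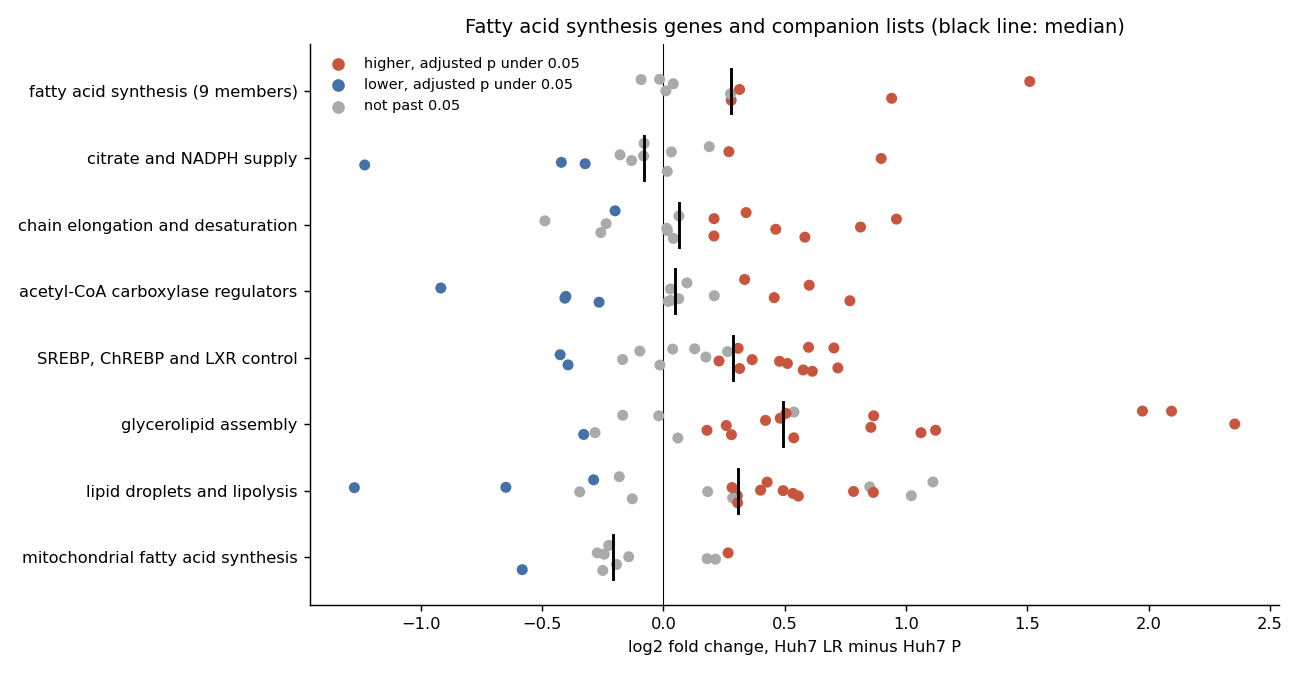
Log2 fold change of Huh7 LR against Huh7 P for the members other than MID1IP1 and for each gene of the 7 companion lists, 1 point per gene, with the median of each list as a black line. The list medians run from -0.21 for mitochondrial fatty acid synthesis to 0.49 for glycerolipid assembly.

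Of 12 tested genes supplying acetyl-CoA and NADPH, 2 rose, 3 fell and 7 did not pass, with a median log2 fold change of -0.081. ACSS2, which makes acetyl-CoA from acetate, rose from 67.5, 72.1 and 75.0 CPM in Huh7 P to 160, 120 and 119 CPM in the resistant line, a log2 fold change of 0.90 (SE 0.11, adjusted p = 7.4e-05). TKT and TALDO1, of the non-oxidative branch of the pentose phosphate pathway, fell, with log2 fold changes of -0.42 (adjusted p = 0.00079) and -0.32 (adjusted p = 0.0057). PGLS, a lactonase of the same pathway, was named after its values were seen as the other gene that rose and had a log2 fold change of 0.27, a call lost in 3 of 13 alternatives (without replicate 2 or 3 of Huh7 P or replicate 3 of Huh7 LR).

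Of the 15 tested genes of chain elongation and desaturation, 7 rose, 1 fell and 7 did not pass, with a median log2 fold change of 0.063. ELOVL7, an elongase of saturated long chains, rose from 32.6 ± 0.77 to 57.2 ± 2.0 CPM (SD, n = 3; log2 fold change 0.81, adjusted p = 5.8e-06). FADS1, the delta-5 desaturase of polyunsaturated chains, rose from 474 ± 9.2 to 710 ± 107 CPM (SD, n = 3), by 0.58 on the log2 scale (adjusted p = 0.00062). TECR, the reductase of the last elongation step, and SCD5, the second stearoyl-CoA desaturase, rose by 0.34 (adjusted p = 0.0023) and 0.46 (adjusted p = 0.00099). The gene that fell, HACD2, a dehydratase of the elongation cycle, had a log2 fold change of -0.20 and was named after its values were seen. Its call was lost in 6 of 13 alternatives, both limma fits among them and 4 that leave out 1 library (each of Huh7 P, and replicate 1 of Huh7 LR).

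Of 14 tested regulators of acetyl-CoA carboxylase, 4 rose, 4 fell and 6 did not pass, with a median log2 fold change of 0.046. MID1, the microtubule-associated ubiquitin ligase for whose binding MID1IP1 is named, rose from 22.6, 23.8 and 22.9 CPM in Huh7 P to 31.5, 36.3 and 37.3 CPM in Huh7 LR (log2 fold change 0.60, SE 0.085, adjusted p = 0.00019). AMP-activated kinase phosphorylates and inhibits the carboxylases. Of its subunits, the catalytic PRKAA1 fell by 0.41 on the log2 scale (adjusted p = 0.0038) and the scaffold PRKAB2 rose by 0.77 (adjusted p = 8.7e-06). The other catalytic subunit, PRKAA2, rose by 0.46 (adjusted p = 0.024, a call lost in 5 of 13 alternatives, 4 of which leave out 1 library: replicates 2 and 3 of Huh7 P and 1 and 3 of Huh7 LR) and the nucleotide-binding PRKAG2 fell by 0.40 on the log2 scale (adjusted p = 0.0040), while PRKAB1 at 0.10 and PRKAG1 at 0.21 did not pass. PRKAG1 passed in both limma fits and without replicate 3 of Huh7 P, where it was at 0.29, and was at 0.13 without replicate 1 of Huh7 P. PRKAA2, PRKAG2, PRKAB1 and PRKAG1 were named beyond the rule for named genes, to give all those tested. BRCA1, whose protein binds the phosphorylated form of ACACA, fell by 0.92 on the log2 scale (adjusted p = 6.4e-06).

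Of 20 genes that control SREBP, ChREBP and the liver X receptors, 11 rose, 2 fell and 7 did not pass, with a median log2 fold change of 0.29. SCAP, the escort that carries SREBP precursors to the Golgi, rose from 154 ± 10 to 232 ± 11 CPM (SD, n = 3; log2 fold change 0.60, adjusted p = 7.8e-05). MLXIP, which encodes MondoA, the paralog of ChREBP, was lower at 52.1 ± 2.4 CPM (SD, n = 3), and its log2 fold change of -0.43 (adjusted p = 0.0015) had the opposite sign to that of MLXIPL. USF2, an E-box-binding factor, rose by 0.37 (adjusted p = 0.0015), and LPCAT3, a phospholipid acyltransferase regulated by liver X receptors, by 0.61 (adjusted p = 0.00049). The list holds 4 genes known to respond to ChREBP or MondoA, given here in full beyond the rule for named genes. PKLR, TXNIP and KLF10 rose, with log2 fold changes of 0.72 (adjusted p = 0.0084), 0.58 (adjusted p = 0.014) and 0.70 (adjusted p = 0.0017), and ARRDC4 did not pass, at 0.04 (adjusted p = 0.91). TXNIP lost its call with DESeq2 and without replicate 1 of Huh7 P, and its log2 fold change was 0.32 without replicate 1 of Huh7 LR. All 4 were highest in replicate 1 of Huh7 LR among the libraries of that line. So were 9 of the 20 genes of this list, 43 of the 112 tested companion genes and 36.3% of all tested genes.

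Glycerolipid assembly was the list with the highest median, 0.49 on the log2 scale. Of 20 tested genes, 14 rose, 1 fell (AGPAT5, at -0.33, named after its value was seen) and 5 did not pass. AGPAT4, an acyltransferase that makes phosphatidic acid, rose from 1.52, 1.44 and 1.19 CPM in Huh7 P to 7.66, 6.74 and 6.90 CPM in the resistant line, a log2 fold change of 2.36 (SE 0.15, adjusted p = 1.1e-06). Its level was low, and the log2 difference was 1.72 on log2(FPKM + 0.1) and 0.65 on log2(FPKM + 1), the latter below 2-fold. DGAT2, which completes triglyceride from newly made fatty acids, rose from 20.6, 24.6 and 24.7 CPM to 52.4, 50.6 and 49.0 CPM, a log2 fold change of 1.12 (SE 0.087, adjusted p = 3.3e-06). The replicates of Huh7 LR were close together for both genes, and replicate 1 did not stand apart for DGAT2. ACSL5 and ACSL1, which activate fatty acids to acyl-CoA, rose by 1.06 (adjusted p = 2.6e-06) and 0.86 (adjusted p = 1.2e-05). With AGPAT4, DGAT2 and ACSL5, ACSL6 was the fourth gene of the list past the stricter call, at a log2 fold change of 2.09. That call was lost for ACSL5 without replicate 1 of Huh7 LR, where its log2 fold change was 0.997, and for ACSL6 without replicate 2 or 3 of Huh7 P or replicate 3 of Huh7 LR, where its adjusted p reached 0.0019. ACSL6 was named after its values were seen, had 15 to 32 counts per library in Huh7 P, and shares exon sequence with another gene.

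Of 21 tested genes of lipid droplets and lipolysis, 10 rose, 3 fell and 8 did not pass, with a median log2 fold change of 0.31. PNPLA2, the adipose triglyceride lipase, of the same patatin-like family as PNPLA3, rose from 37.7 ± 2.1 to 55.4 ± 1.0 CPM (SD, n = 3; log2 fold change 0.56, adjusted p = 9.5e-05). MGLL, which cleaves monoacylglycerol, rose by 0.78 (adjusted p = 1.0e-05), and PLIN2, the coat protein of droplets in hepatocytes, by 0.49 (adjusted p = 0.00023). CIDEC, which promotes droplet fusion, went the other way, from 48.6, 47.9 and 52.2 CPM in Huh7 P to 24.5, 18.7 and 18.3 CPM in the resistant line, a log2 fold change of -1.27 (SE 0.11, adjusted p = 7.0e-06). The other genes that fell, named after their values were seen, were PLIN3 and BSCL2, with log2 fold changes of -0.29 and -0.65. The call of BSCL2 was lost in 4 of 13 alternatives (without replicate 1 or 3 of Huh7 P or of Huh7 LR). BSCL2 shares 40.6% of its exon bases with a readthrough gene.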

How the data were processed

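Total RNA was extracted from cultured cells, and poly(A) libraries were made with an NEBNext Ultra kit. The authors deposited 1 table with a read count per gene and library, not normalized, and an FPKM value, which adjusts for the length of the transcript and the depth of the library. The submitters' processing notes name TopHat2, Cufflinks, DESeq and the mouse build mm10, whereas the identifiers are human, and the build and strand setting used for counting are not given in the sources used here. The extraction text of the labels describes an insect. A total of 34 lines of text that name no gene were left out.

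The analysis of the counts ran in edgeR 4.0.16 under R 4.3.3. The function filterByExpr (minimum count 10, minimum total 15) kept 17531 genes, TMM factors were 0.977 to 1.03, and the quasi-likelihood test compared Huh7 LR with Huh7 P, with p-values adjusted after Benjamini and Hochberg over all of them. Genes were called at an adjusted p under 0.001 and more than a 2-fold change, and companion genes were said to differ at an adjusted p under 0.05. Fold changes against a line at 0 were bounded by 3 counts per library, and such floors cover counting error only. The code was tested on simulated data. DESeq2 1.42.0, limma 3.58.1 on FPKM, other filters and each library left out were alternatives.

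The members and lists were chosen with earlier results of these data known. Text names all 10 members, the 4 genes of each list with the smallest adjusted p, THRSP, the 2 tested genes next to MID1IP1 and the annotated genes at 0 in all Huh7 LR libraries with at least 10 counts in each Huh7 P library. One gene that this rule would name is not reported here. Others are said to be named after their values were seen or beyond this rule. The study's methods call the samples independent, the labels name no separate cultures, and p-values measure only the spread between these samples.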

Additional observations from a re-analysis of the deposited data

How the results depend on the processing

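Direction and threshold side of the 28 companion genes named by rule held in 357 of 364 results over 13 alternatives, and none reversed. CBR4 lost its call in 5 alternatives, each of them leaving out 1 library, and OXSM passed in 2. Of 178 results for the 14 genes named after their values were seen, 153 held, 20 lost and 3, all of PRKAG1, gained the call at an adjusted p of 0.05, with PGLS, HACD2, PRKAA2, TXNIP and BSCL2 losing it in 2 to 6 alternatives each. ARRDC4, which did not pass, ranged from -0.12 to 0.22 when 1 library was left out, with -0.033 without replicate 2 of Huh7 P and -0.12 without replicate 1 of Huh7 LR. Fitted to log2(FPKM + 1), limma called 268 genes higher and 84 lower, in place of 776 and 312, and with an adjusted p under 0.05 and no fold threshold 4093 and 3923. That threshold gave 4 members higher in place of 1. With at least 10 counts in every library, MID1IP1 was not tested and 0 members were lower at either threshold, and 0 were called lower with limma on log2(FPKM + 1), whose pseudocount exceeds the level of MID1IP1. Leaving out each library in turn gave 551 to 734 genes called higher and 224 to 341 lower, 1 to 2 members called higher, 1 called lower throughout, 4 to 5 members higher and 1 to 2 lower at an adjusted p under 0.05, and 34 to 48 companion genes higher and 12 to 18 lower. PNPLA3 passed the 2-fold threshold without replicate 1 of Huh7 P or without replicate 2 of Huh7 LR, and ELOVL6 was lower at 0.05 without replicate 1 of Huh7 LR. FASN came under 0.05 with the DESeq2 test, with the replicate block and without replicate 1 of Huh7 P or replicate 2 of Huh7 LR, and its log2 fold change ranged from 0.13 to 0.38. The log2 fold change of ACACB was 0.36 with limma on log2(FPKM + 0.1). On log2(FPKM + 1), which understates low genes, the log2 fold changes of AGPAT4 and PKLR shrank to 0.65 and 0.47, and ACSL6 did not pass the filter on FPKM. MCAT and OXSM, at means of 5.93 and 10.3 FPKM in Huh7 P, were at -0.15 and -0.17 on that scale, beside -0.24 and -0.27 in the main fit. The cause of the other shifts was not tested. The replicate numbers are shared by the lines. Over all tested genes, the deviations of same-numbered libraries correlated by 0.057, 0.067 and 0.025, none over 0.1. The numbers were therefore not taken to pair the samples, although each library correlated best with its own number. Among the 9 members with counts in both lines, replicate 1 was the highest for 9 in Huh7 LR and for 8 in Huh7 P. Whether same-numbered libraries share an effect on these genes was not tested. With the replicate number as a block, 783 genes were called higher and 316 lower, 1 member each way, 5 members higher and 1 lower at 0.05, and 47 companion genes higher and 17 lower. With 3 libraries a line and a floor of 3 counts, genes such as RPGR, OTC and THRSP are too shallow to compare.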

Other observations

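Mitochondria hold a separate fatty acid synthesis pathway that makes the lipoate precursor, and its 10 genes had a median log2 fold change of -0.21. By the quasi-likelihood test of edgeR 1 gene rose, 1 fell and 8 did not pass at an adjusted p of 0.05. NDUFAB1, the mitochondrial acyl carrier protein, fell from 84.5 ± 5.1 to 56.4 ± 2.1 CPM (SD, n = 3 each), a log2 fold change of -0.58 (adjusted p = 7.1e-05). CBR4, a subunit of the ketoacyl reductase, rose by 0.27 on the log2 scale (adjusted p = 0.039), a call that leaving out any 1 of 5 libraries ended. MCAT, the malonyl transferase, was at -0.24 on the log2 scale (adjusted p = 0.059) and OXSM, the ketoacyl synthase, at -0.27 (adjusted p = 0.076).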
